A study of Mus musculus with 14 samples.

Results

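The genes Snai1, Snai2, Zeb1, Zeb2, Twist1 and Twist2 encode the Snail, Zeb and Twist transcription factors, and the CUT&Tag peaks around them were read out in mouse muscle stem cells (MuSCs). The 6 genes were taken by name from 21757 protein-coding genes. A peak was assigned to a gene when it overlapped the canonical transcript extended by 20 kb on both sides. By this rule the genes held 8 of the 7339 pSMAD1/5/9 peaks listed after BMP6 and 1 of the 949 listed with vehicle. They held 10 of 12860 SMAD4 peaks after BMP6 and 6 of 8577 with vehicle. For H3K27ac, the numbers were 72 of 78050 and 65 of 67790.

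MuSCs were isolated from limb, back and breast muscle of 9-week-old female C57BL/6N mice that carry a Pax7-EGFP transgene, in which the Pax7 promoter drives the reporter used for cell sorting, and were then cultured. All cells, controls included, were starved of serum for 6 h together with 200 ng/mL soluble BMPR1A, a receptor fragment that captures free BMP ligands. One group received 100 ng/mL BMP6 for 1 h, and the control group received the vehicle, which was 4 mM HCl with 0.1% BSA. CUT&Tag directs a transposase to an antibody on chromatin and sequences the fragments it cuts, and here it was made on 100000 fixed cells per library with antibodies against pSMAD1/5/9, SMAD4 and H3K27ac, with 2 biological replicates each. The question put to these genes was whether BMP signalling effectors were found at them within 1 h.

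Snail and Zeb factors are zinc finger repressors that bind E-boxes, and they recruit corepressors to silence epithelial genes such as Cdh1 during the epithelial-mesenchymal transition. Twist factors are basic helix-loop-helix proteins that bind E-boxes as dimers with E proteins, and they can restrain MyoD activity in muscle progenitors. In myoblasts, Snail factors can occupy E-boxes in place of MyoD and so hold back differentiation. BMP ligands act through receptor kinases that phosphorylate SMAD1, SMAD5 and SMAD9, and these enter the nucleus together with SMAD4, the partner shared with the TGF-β branch. H3K27ac marks active promoters and enhancers.

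The sequences below lie under SMAD summits at Snai1, Snai2 and Zeb2 and are shown because the comparisons between conditions turn on them. They were read from the plus strand of GRCm39. Capitals mark matches, on either strand, to CAGAC (the SMAD box), GGAGCC and GGCGCC (SMAD sites of BMP-responsive elements), GTCTAGAC (the SMAD palindrome), CAGGTG (an E-box bound by Snail and Zeb factors), CAGCTG (an E-box bound by myogenic factors), CATATG (an E-box bound by Twist factors) and TGACTCA (the AP-1 site).
Snai1 downstream site 1 (chr2:167395091-167395247): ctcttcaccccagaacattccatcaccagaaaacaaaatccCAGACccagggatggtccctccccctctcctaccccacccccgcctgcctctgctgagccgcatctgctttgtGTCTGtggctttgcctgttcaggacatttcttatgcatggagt
Snai1 downstream site 2 (chr2:167401422-167401646): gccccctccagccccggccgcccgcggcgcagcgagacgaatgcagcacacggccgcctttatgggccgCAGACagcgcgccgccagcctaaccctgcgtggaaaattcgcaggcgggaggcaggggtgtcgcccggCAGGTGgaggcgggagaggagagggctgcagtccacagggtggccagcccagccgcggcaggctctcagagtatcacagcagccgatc
Snai2 promoter (chr16:14523225-14523424): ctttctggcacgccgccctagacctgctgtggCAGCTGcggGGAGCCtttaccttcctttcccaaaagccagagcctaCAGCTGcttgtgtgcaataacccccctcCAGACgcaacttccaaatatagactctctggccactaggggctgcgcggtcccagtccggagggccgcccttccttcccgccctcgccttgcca
Zeb2 intronic site 1 (chr2:44998667-44998859): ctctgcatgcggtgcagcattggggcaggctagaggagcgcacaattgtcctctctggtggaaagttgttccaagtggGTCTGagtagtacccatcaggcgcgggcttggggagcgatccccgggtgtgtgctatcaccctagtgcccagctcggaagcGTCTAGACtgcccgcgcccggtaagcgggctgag
Zeb2 intronic site 2 (chr2:44889986-44890133): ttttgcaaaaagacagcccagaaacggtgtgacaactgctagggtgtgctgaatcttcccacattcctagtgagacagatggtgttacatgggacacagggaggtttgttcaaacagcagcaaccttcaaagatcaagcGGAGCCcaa

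The first Snai1 site, 15 kb downstream of the transcription start site (TSS), held 2 CAGAC matches, which were 17 bp and 56 bp from the pSMAD1/5/9 summit. At the second Snai1 site, a CAGGTG E-box stood 24 bp and a CAGAC match 93 bp from the pSMAD1/5/9 summit. The 200 bases before the Snai2 TSS held 2 CAGCTG E-boxes, and 1 of them was 18 bp from the summit, next to a GGAGCC match 9 bp from it. The first Zeb2 site, in intron 2, had pSMAD1/5/9 and SMAD4 peaks with vehicle. It held a CAGAC match 20 bp from the pSMAD1/5/9 summit and the GTCTAGAC palindrome 103 bp from it. This palindrome was the only 1 in the 200 bp windows of the 25 SMAD peaks of the 6 genes. It lay in the window of the vehicle SMAD4 peak and outside that of pSMAD1/5/9. The second Zeb2 site, in intron 6, was listed only after BMP6, and its nearest match was a GGAGCC 82 bp from the summit. Such matches describe the letters of these windows and were not tested as binding sites.

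A pSMAD1/5/9 peak was listed after BMP6 at 4 of the 6 genes, namely Snai1, Snai2, Zeb1 and Zeb2, and at 29.1% of all protein-coding genes. With vehicle it was listed at 1 of the 6, Zeb2, and at 5.97% of all genes. SMAD4 peaks were listed at the same 4 genes after BMP6, against 39.3% of all genes, and at Snai1, Zeb1 and Zeb2 with vehicle, against 30.8%. H3K27ac was listed at the same 4 genes in both conditions, where 74.8% of all genes had a peak after BMP6 and 73.4% with vehicle. No peak of any list lay within 20 kb of Twist1 or Twist2. Among genes with H3K27ac, the shares with a pSMAD1/5/9 peak were 38.8% after BMP6 and 8.13% with vehicle, and those with a SMAD4 peak were 52.3% and 41.8%. With 6 genes, a count of 4 or 1 stood on few observations, and no test over samples was made, since a site without a listed peak has no value and the signals of different lists have no stated common scale.

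**Figure D1:**
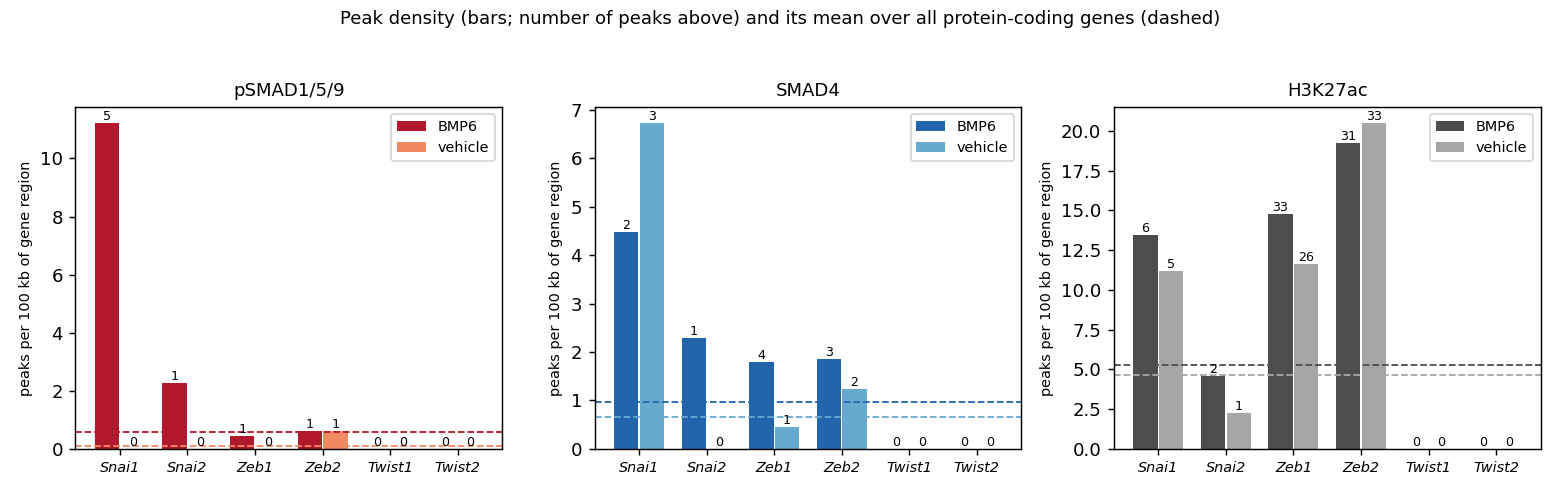
Peaks per 100 kb of gene region (y axis) at each of the 6 genes (x axis) for pSMAD1/5/9, SMAD4 and H3K27ac. Each gene has 1 bar for BMP6 and 1 for vehicle, with the number of peaks above it. The dashed line, titled as a mean, is a pooled rate. It is the summed peaks over the summed region length of all protein-coding genes, so long genes weigh more. Snai1 stood highest for pSMAD1/5/9 after BMP6 at 11.2 peaks per 100 kb, where the pooled rate was 0.587, and both Twist genes were at 0 throughout.

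The number of pSMAD1/5/9 peaks at the 6 genes was 8 times as high after BMP6 as with vehicle (exact 95% interval 1.07 to 355, which covers counting error over peaks only). The whole lists differed 7.73 times. For SMAD4 the ratio was 1.67 (0.549 to 5.58), where the lists differed 1.499 times. The ratio for H3K27ac, whose wide stretches were split differently in both lists, was 1.11 (0.781 to 1.57), beside 1.15 for the lists. Neighbouring peaks of a gene are not independent, so these intervals do not measure the spread between replicates and were not read as tests.

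Peaks are described by their signal rank, where 1 is the strongest peak of a list, because the signals of different lists have no stated common scale. Each peak also had a signal from both replicates, and the ranks by these columns give its spread. Each peak further had an irreproducible discovery rate (IDR) of at most 0.05, here given as −log10, where higher values mean better agreement between replicates. A stricter IDR of 0.01 was passed by 4 of the 8 pSMAD1/5/9 peaks after BMP6, by 4 of 10 SMAD4 peaks after BMP6 and by 2 of 6 with vehicle. Over the whole lists, 50.1%, 49.2% and 41.7% of the peaks passed it.

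Snai1, which encodes Snail, had more pSMAD1/5/9 peaks after BMP6 than the other 5 genes together. The gene (ENSMUSG00000042821.9) has 3 exons and spans positions 167380113 to 167384734 of chromosome 2 (GRCm39, plus strand). It had 5 pSMAD1/5/9 peaks after BMP6 and none with vehicle, where the nearest peak was 458.8 kb from the gene body. As many or more BMP6 peaks were listed at 226 genes, or 1.04% of all. Of the 9766 genes with a region of like length, within 20% of that of Snai1, 0.594% had as many. A pSMAD1/5/9 peak after BMP6 and none with vehicle was listed at Snai1, Snai2 and Zeb1, and at 23.5% of all genes.

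The strongest of the Snai1 peaks lay downstream of the gene. The pSMAD1/5/9 peak with its summit 21473 bp after the TSS had signals of 35480 and 20980 in the replicate columns, and ranked 437 of 7339 overall and 372 and 650 by either column, with a −log10 IDR of 4.471. The peak at 15038 bp had signals of 18840 and 23760 and ranked 935, or 1630 and 458 by column. In percent of the list these ranks were 5.95% and 12.7%, while the other Snai1 peaks stood below the middle of it. The peak at 24217 bp ranked 4133, the peak in intron 2 at 2137 bp ranked 5516 and the peak at 5912 bp ranked 6856. The last 2 had −log10 IDRs of 1.389 and 1.416, close to the threshold. No pSMAD1/5/9 peak came within 2 kb of the Snai1 TSS.

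SMAD4 differed from pSMAD1/5/9 at Snai1 in that peaks were listed in both conditions. At the 15 kb site the SMAD4 signals were 22150 and 11550 after BMP6 and 9788 and 10130 with vehicle, each on the scale of its own list. The peak ranked 931 of 12860 after BMP6 (878 and 1066 by column) and 1452 of 8577 with vehicle (2222 and 864), and the summits of both conditions were 8 bp apart. By rank number the columns of both conditions interleaved. In percent of the list they did not, with 6.83% and 8.29% after BMP6 and 25.9% and 10.1% with vehicle, and this difference was not tested. The SMAD4 summit after BMP6 was 28 bp from that of pSMAD1/5/9. The annotated TSS of Gm11476, a long noncoding RNA gene, was 83 bp from the pSMAD1/5/9 summit, so this site was also at a TSS.

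At 21 kb, where the strongest pSMAD1/5/9 peak was listed after BMP6, SMAD4 was listed with vehicle (rank 4377) and not after BMP6. At 24 kb, both factors were listed after BMP6, with SMAD4 at rank 1973 and the summits 90 bp apart, and neither with vehicle. A SMAD4 peak 156 bp before the TSS was listed with vehicle at rank 8063 of 8577, with a −log10 IDR of 1.304. The 6 sites of Snai1 thus held 5 pSMAD1/5/9 peaks after BMP6, 2 SMAD4 peaks after BMP6 and 3 SMAD4 peaks with vehicle, and 1 site was common to SMAD4 in both conditions.

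H3K27ac covered all 6 sites in both conditions. The promoter peak was 8540 bp wide after BMP6 (rank 4184 of 78050) and 8700 bp with vehicle (rank 6817 of 67790). Farther downstream the lists split like stretches at different places, so widths and ranks of single peaks there are not comparable between conditions. Around 15 kb, 1 peak of 6580 bp at rank 1675 was listed after BMP6, preceded by peaks of 1820 and 1680 bp at ranks 24036 and 49074. With vehicle, a peak of 4300 bp at rank 2261 lay over the SMAD site, and peaks of 1000 and 3800 bp at ranks 38045 and 17117 preceded it. At the 21 kb site, the peak after BMP6 was 3220 bp wide and ranked 7868, and it abutted a peak of 17920 bp at rank 45 with its summit about 35 kb from the TSS. With vehicle, 1 peak of 15900 bp at rank 253 covered the 21 kb site and part of that stretch, followed by peaks of 2700 and 2100 bp.

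Beyond 20 kb from the Snai1 gene body the peaks continued. Between 20 and 50 kb, 6 further pSMAD1/5/9 peaks were listed after BMP6, 8 SMAD4 peaks after BMP6 and 5 with vehicle. All lay downstream. The nearest pSMAD1/5/9 peak to the edge was at 32013 bp and ranked 2204. A SMAD4 peak at 37520 bp ranked 32 of 12860 after BMP6 and overlapped 2 pSMAD1/5/9 peaks, at ranks 1843 and 1598. It was 2014 bp wide. With vehicle, SMAD4 was listed there as 2 peaks of 441 and 957 bp at 36933 and 37965 bp, which ranked 1605 and 1555 of 8577. Ranks of peaks that were split differently are not comparable, so these were not read as a difference between conditions. From about 48 kb onward Ube2v1, a ubiquitin-conjugating enzyme variant, had the nearest protein-coding TSS, and a pSMAD1/5/9 peak at 52494 bp ranked 555.

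**Figure D2:**
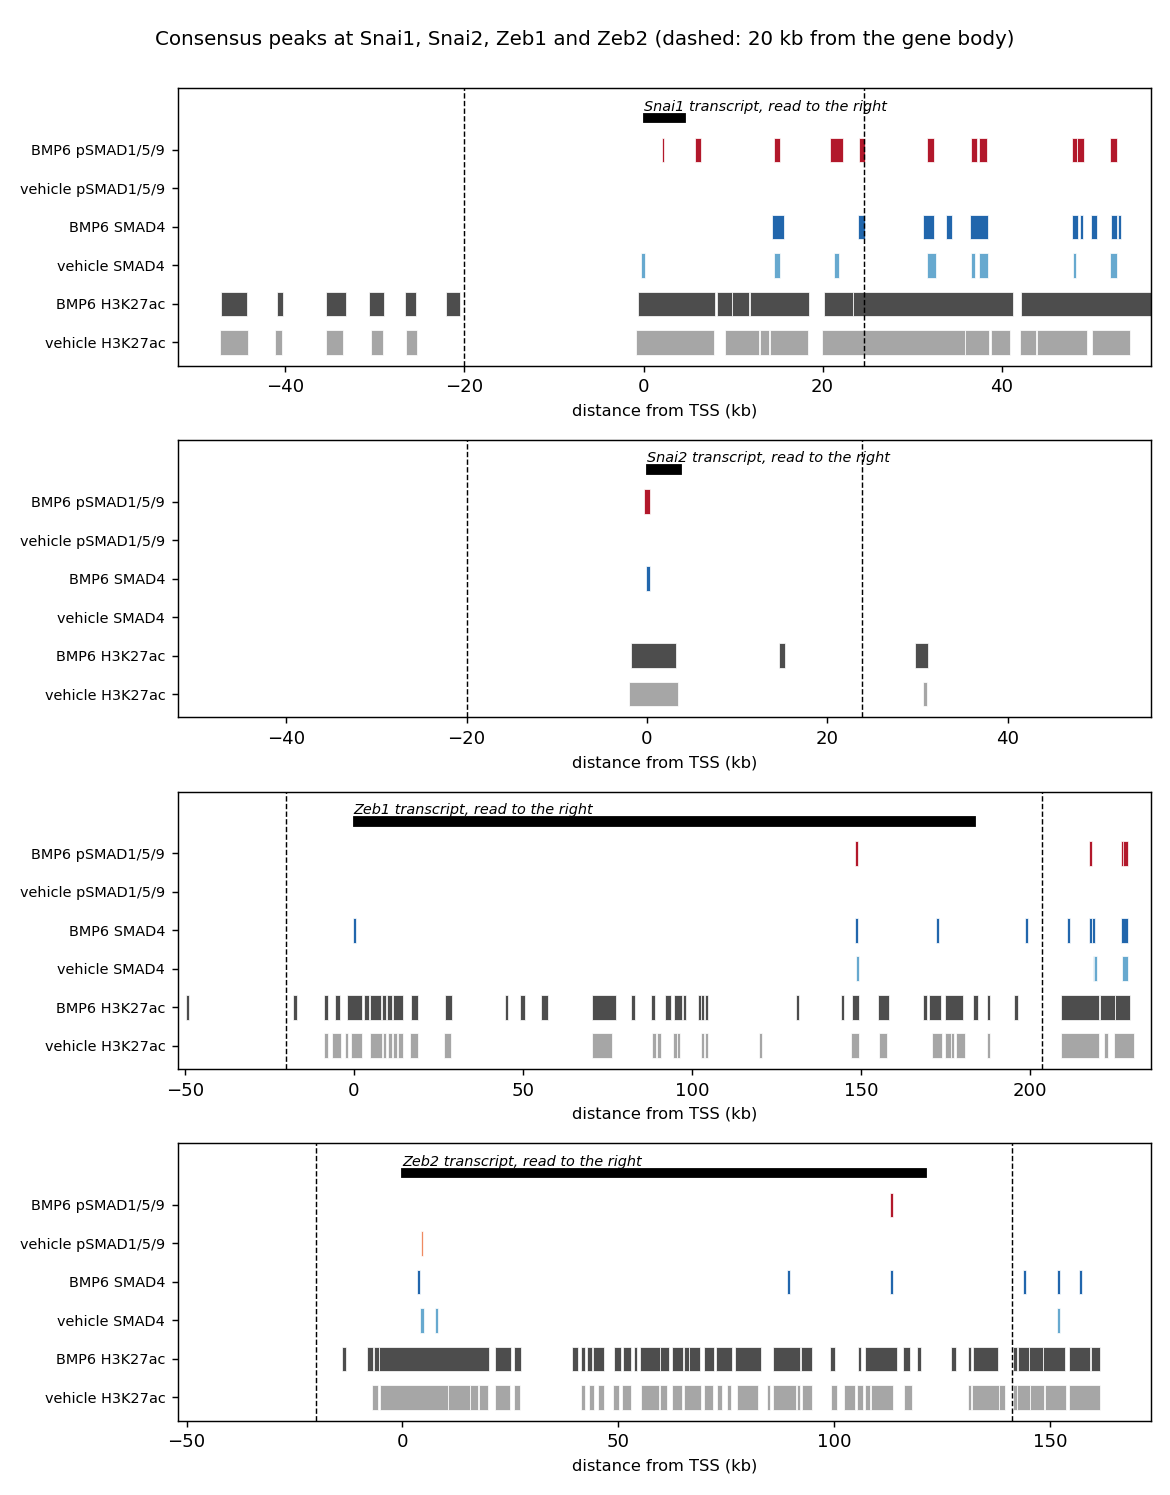
Peaks of the 6 lists (rows, 1 colour each) at Snai1, Snai2, Zeb1 and Zeb2, with the distance from the TSS in kb on the x axis in the direction of transcription. Boxes are peaks with a minimum drawn width, the black bar is the transcript, and dashed lines stand 20 kb from the gene body. All Snai1 pSMAD1/5/9 peaks followed the TSS and went on past the dashed line, and Snai2 had peaks at its promoter. Inside the dashed lines the SMAD peaks of Zeb1 and Zeb2 were mostly intronic. Past the dashed line both genes had further SMAD peaks, all downstream, among them the strongest drawn at Zeb1.

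Snai2, which encodes Slug, had its SMAD peaks at the promoter and only after BMP6. The gene (ENSMUSG00000022676.9) also has 3 exons, between positions 14523425 and 14527249 of chromosome 16 (plus strand). The pSMAD1/5/9 peak had its summit 147 bp before the TSS, with signals of 10820 and 7252 in the replicate columns, and ranked 4046 of 7339 (3633 and 4403 by column). It passed the stricter IDR threshold with a −log10 IDR of 2.071. The SMAD4 peak lay 61 bp before the TSS, with signals of 5208 and 2636 and rank 7760 of 12860 (7325 and 8091), at a −log10 IDR of 1.969. Both ranks were below the middle of their lists. With vehicle, the nearest pSMAD1/5/9 peak was 1290 kb and the nearest SMAD4 peak 545.9 kb from the gene body.

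Within 2 kb of the TSS, 2610 of the 21757 genes had a pSMAD1/5/9 peak after BMP6 and 378 with vehicle. For SMAD4 these numbers were 3882 and 2702. Snai2 was the only 1 of the 6 genes with pSMAD1/5/9 there. Gm61084, a long noncoding RNA gene, has its TSS 16 bp from the pSMAD1/5/9 summit, so the peak cannot be assigned to either gene alone. The promoter was marked with H3K27ac in both conditions. That peak was 5040 bp wide and ranked 2986 after BMP6 (3538 and 2935 by column), and was 5500 bp wide and ranked 9293 with vehicle (9734 and 8797). In percent of the list these were 3.83% and 13.7%, and the columns of both conditions did not overlap. This difference was not tested. A second H3K27ac peak 14888 bp after the TSS was listed after BMP6 at rank 70795.

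Zeb1 encodes a zinc finger homeobox repressor of epithelial genes. The gene (ENSMUSG00000024238.17) spans positions 5591864 to 5775467 of chromosome 18 (plus strand) with 8 exons. Zeb1 had 1 pSMAD1/5/9 peak after BMP6, in intron 2 with its summit 148533 bp from the TSS. The signals were 11990 and 6226, and the rank was 4002 of 7339 (3211 and 5144 by column). At the same site SMAD4 was listed in both conditions. Its signals were 17630 and 8385 after BMP6, for rank 1578 of 12860 (1523 and 1874), and 7023 and 3189 with vehicle, for rank 4110 of 8577 (3476 and 5165). In percent of the list the site stood at 12.3% after BMP6 and at 47.9% with vehicle, and the columns of the 2 lists did not overlap. This was a difference of rank between 2 lists of different length and was not tested.

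The other Zeb1 peaks were SMAD4 peaks listed after BMP6 only, and all 3 were weak. The peak 122 bp before the TSS ranked 10550, the peak in intron 5 at 172500 bp ranked 8191 and a downstream peak at 198665 bp ranked 11872. Their −log10 IDRs were 1.367, 1.693 and 1.357. The last was the only SMAD peak of the 6 genes outside H3K27ac, and its 200 bp window held 12 CAGAC matches, where the other windows held at most 2. Zeb1 had 33 H3K27ac peaks after BMP6 and 26 with vehicle. Of these, 19 of 33 and 24 of 26 overlapped a peak of the other condition, beside 72.0% and 86.8% of the lists. This was not tested. The strongest was in an intron about 75 kb from the TSS in both conditions, at rank 2110 after BMP6 and 1701 with vehicle.

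Just outside the Zeb1 region stood much stronger peaks. About 228 kb from the TSS and beyond the 3′ end of the gene, the pSMAD1/5/9 peak after BMP6 ranked 47 of 7339, and 57 by either column. SMAD4 ranked 69 of 12860 there after BMP6 and 82 of 8577 with vehicle. Its nearest protein-coding TSS was that of Zeb1. No vehicle pSMAD1/5/9 peak was listed at it, and the nearest was 59.65 kb from the gene body.

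Zeb2 encodes a homeobox repressor that is also known as a SMAD-interacting protein. The gene (ENSMUSG00000026872.20) spans positions 44882017 to 45003255 of chromosome 2 (minus strand) with 9 exons. Zeb2 was the only 1 of the 6 genes with a pSMAD1/5/9 peak in both lists, and the peaks lay at different sites. The vehicle peak was in intron 2, with its summit 4528 bp from the TSS and signals of 9280 and 7789. It ranked 933 of 949 (934 and 917 by column), among the weakest of its list, at a −log10 IDR of 1.336. It was not overlapped by a pSMAD1/5/9 peak after BMP6. Of the 1299 genes with a vehicle pSMAD1/5/9 peak, 180 had none that overlapped a BMP6 peak, or 0.827% of all genes. Of all vehicle pSMAD1/5/9 peaks, 84.7% were overlapped.

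SMAD4 ranked higher in its list than pSMAD1/5/9 at this intronic site. The vehicle SMAD4 peak had signals of 14790 and 7383 and ranked 1172 of 8577 (1043 and 1616), with its summit 72 bp from that of pSMAD1/5/9 and 4456 bp from the TSS. It held the GTCTAGAC palindrome, which was found in 1.15% of all vehicle SMAD4 windows. After BMP6, the SMAD4 peak there had its summit 878 bp away, 3578 bp from the TSS, with signals of 5764 and 3545 and rank 6609 of 12860 (6710 and 5961). Both SMAD4 peaks overlapped by 132 bp. The TSS of Zeb2os, a long noncoding RNA gene, was 1992 bp from the vehicle pSMAD1/5/9 summit. It was 1920 bp from the vehicle SMAD4 summit and 1042 bp from the SMAD4 summit after BMP6, so this site was also near a TSS. A further vehicle SMAD4 peak at 7906 bp ranked 5424.

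The BMP6 pSMAD1/5/9 peak of Zeb2 was in intron 6, with its summit 113209 bp from the TSS. Its signals were 6508 and 4592, and it ranked 6612 of 7339 (5947 and 6595 by column). SMAD4 was listed there after BMP6 at rank 11259, with its summit 27 bp away, and neither factor was listed there with vehicle. The nearest protein-coding TSS to this site was that of Gtdc1, 72706 bp from the pSMAD1/5/9 summit. Assigned by the nearest TSS, Zeb2 thus had no pSMAD1/5/9 peak after BMP6, and 3 of the 6 genes had one. Another SMAD4 peak at 89285 bp ranked 11695 after BMP6. None of these 3 peaks passed the stricter IDR threshold.

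H3K27ac was dense over Zeb2, with 31 peaks after BMP6 and 33 with vehicle. As many or more were listed at 0.951% and 0.593% of all genes, and at 2.68% and 1.53% of the 1305 genes with a region of like length. After BMP6 its promoter lay in 1 peak of 25340 bp at rank 81 (75 and 182 by column). With vehicle nearly the same stretch was listed as 4 peaks of 15900, 5000, 1700 and 2200 bp, of which the first held the TSS and the intron 2 SMAD sites and ranked 298 (486 and 297). The covered stretch was thus alike, and ranks of peaks that were split differently are not comparable. The same holds over the intron 6 site, where the peak was 7420 bp wide at rank 1239 after BMP6 and 5200 bp at rank 1675 with vehicle, with a further vehicle peak of 1200 bp beside it. Of the Zeb2 peaks, 26 of 31 and 30 of 33 overlapped a peak of the other condition, beside 72.0% and 86.8% of the lists.

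Twist1 (ENSMUSG00000035799.8, chromosome 12, positions 34007645 to 34009828) and Twist2 (ENSMUSG00000007805.6, chromosome 1, positions 91729176 to 91775750) lie on plus strands and have 2 exons each. Neither had a SMAD or an H3K27ac peak within 50 kb of its gene body. The nearest H3K27ac peak to Twist1 was 80.17 kb away after BMP6 and 80.07 kb with vehicle. For Twist2 the distances were 69.85 kb and 85.95 kb. Among genes with a region of like length, 59.7% for Twist1 and 85.9% for Twist2 had H3K27ac after BMP6. The nearest pSMAD1/5/9 peak after BMP6 was 527.8 kb from Twist1 and 251.5 kb from Twist2. A consensus list holds only peaks called in both replicates, so weaker signal at these genes is not shown to be absent.

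**Figure D3:**
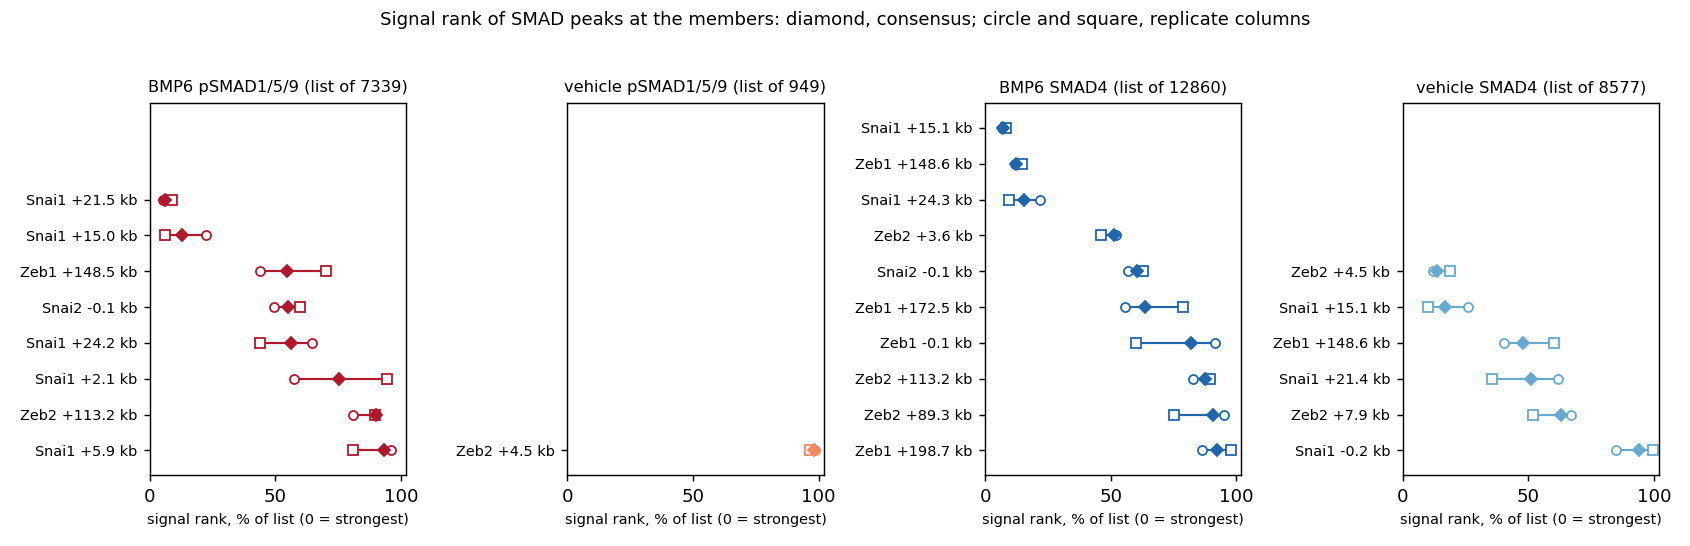
Signal rank in percent of the list (x axis, 0 is the strongest) of each SMAD peak (y axis, named by gene and summit distance from the TSS) in the 4 SMAD lists. Diamonds are the consensus and the circle and square are the ranks by either replicate column. The Snai1 peaks at 21.5 and 15.0 kb were the strongest pSMAD1/5/9 peaks after BMP6, the Zeb2 vehicle pSMAD1/5/9 peak was near the end of its list, and the columns of several weaker peaks lay far apart.

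Across the 4 SMAD lists the 6 genes had 25 peaks, of which 10 belonged to Snai1, 2 to Snai2, 6 to Zeb1 and 7 to Zeb2. By position, 12 lay in introns, 9 downstream and 4 within 2 kb of a protein-coding TSS, and none farther upstream or in an exon. Merged by overlap they formed 15 sites, with 6 at Snai1, 1 at Snai2, 4 at Zeb1 and 4 at Zeb2. Both factors were listed after BMP6 at 5 of these sites, pSMAD1/5/9 without SMAD4 at 3, and SMAD4 without pSMAD1/5/9 at 5. The other 2 had vehicle peaks only. At the 5 shared sites the summits of both factors were 27 to 95 bp apart.

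None of the 8 pSMAD1/5/9 peaks after BMP6 overlapped a vehicle pSMAD1/5/9 peak (Wilson 95% interval 0 to 32.4%), where 11.4% of the list did. For SMAD4, 3 of 10 BMP6 peaks overlapped a vehicle peak (interval 10.8 to 60.3%), beside 45.5% of the list. The H3K27ac peaks overlapped in 52 of 72 cases (72.2%, 61.0 to 81.2%), beside 72.0% of the list. Of the 8 pSMAD1/5/9 peaks, 5 overlapped SMAD4 after BMP6 (62.5%, 30.6 to 86.3%), beside 73.2% of the list, and 3 overlapped SMAD4 of the vehicle list (37.5%, 13.7 to 69.4%), beside 57.2%. All 8 lay in H3K27ac of both conditions, as did 98.2% and 97.5% of the list. These intervals cover counting error over few peaks, of which 5 of the 8 pSMAD1/5/9 peaks were at Snai1. Neighbouring peaks are not independent, so the intervals were not read as tests against the list.

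In 200 bp windows at the summits, CAGAC was found in 4 of the 8 pSMAD1/5/9 windows after BMP6, beside 48.6% of the windows of the list, and in 6 of 10 SMAD4 windows, beside 53.4%. GGAGCC was in 3 of 8 (list 25.2%) and 3 of 10 (23.6%). GGCGCC was in none, beside 7.75% and 7.53%. The Snail and Zeb E-box CAGGTG was in 2 of the 8 pSMAD1/5/9 windows, both at Snai1, beside 11.4% of the list. CAGCTG was in 3 of 8 (31.1%), and the Twist E-box CATATG in 1 of 8, at Zeb1 (2.23%). TGACTCA was in no pSMAD1/5/9 window of these genes, beside 15.5% of the list, and in 1 of 10 SMAD4 windows (15.1%). Windows of different lists overlap at shared sites, and no test was made.

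Related genes were looked up in the same way. Of 3 Snail relatives, Scrt1 had a pSMAD1/5/9 peak after BMP6 and none had one with vehicle, while Snai3 had 2 SMAD4 peaks in each condition. Of 7 basic helix-loop-helix genes related to Twist, only Msc and Scx had any peak. Scx, a tendon factor, had 4 pSMAD1/5/9 peaks after BMP6, the strongest at rank 16 of 7339. With vehicle it had 2, the strongest at rank 34 of 949. Msc, which encodes the MyoD repressor musculin, had 2 after BMP6 (strongest rank 2405) and none with vehicle.

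Of 11 corepressors and partners of Snail and Zeb factors, 9 had a pSMAD1/5/9 peak after BMP6 and 4 with vehicle, and 10 had SMAD4 in each condition. Among them was Gsk3b, a kinase that marks Snail for degradation. Its strongest pSMAD1/5/9 peak ranked 214 of 7339 after BMP6 and 320 of 949 with vehicle. Kdm1a, a histone demethylase recruited by Snail, had SMAD4 at rank 115 of 12860 after BMP6 and 106 of 8577 with vehicle. Of 14 epithelial genes, 3 had pSMAD1/5/9 after BMP6 (Cldn4, Cldn7 and Ovol1) and 2 with vehicle (Cldn4 and Krt8), and 7 and 5 had SMAD4. Cdh1, the classical target of Snail repression, had 1 SMAD4 peak after BMP6 at rank 9082 and no pSMAD1/5/9 peak. Of 10 mesenchymal genes, 6 had pSMAD1/5/9 after BMP6 and 1, Acta2, with vehicle, while 8 and 7 had SMAD4. Vim, which encodes vimentin, had 3 pSMAD1/5/9 peaks after BMP6, the strongest at rank 660, and none with vehicle. These counts stand beside the shares of all genes given above and were not tested.

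By the strongest rank in each of the 6 lists, the genes most like Snai1 were Ppfibp1, Hdac11 and Pdgfb (Euclidean distance of the rank percentiles 0.0162, 0.0345 and 0.0347). Those most like Snai2 were Arhgef39, Hcn2 and H3c4 (0.0337, 0.0371 and 0.0397). Zeb1 was nearest to P2ry10b (0.0462). The 6 lists are the only points behind each distance.

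The identity of the cells was checked by H3K27ac within 2 kb of the TSS of marker genes, where 55.1% of all genes had a peak after BMP6 and 53.0% with vehicle. Of 10 MuSC markers, 9 had a peak in both conditions, among them Pax7, Myf5 and Myod1, and Chrdl2 had none. Markers of other cells had a peak for 2 of 5 fibro-adipogenic genes (Dpt and Osr1), 1 of 5 endothelial genes (Tek), 1 of 5 blood genes (Cd68) and 2 of 4 genes of smooth muscle and pericytes (Notch3 and Acta2), the same in both conditions. Pdgfra, Pecam1 and Ptprc had none. Whether other cells contributed to the peaks at Snai2, Zeb1 or Zeb2 was not tested.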

How the data were processed

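The data were CUT&Tag libraries for pSMAD1/5/9, SMAD4 and H3K27ac from MuSCs with BMP6 or vehicle. Of 14 libraries, 12 entered the 6 consensus lists, and the 2 without primary antibody were not analysed here. Per the methods, the authors brought the libraries of each antibody to 1 depth by subsampling, aligned the reads with Bowtie2 2.5.4 (GRCm39), filtered with SAMtools 1.21, called peaks per replicate with JAMM and combined 2 replicates by IDR at 0.05 (all JAMM peaks for H3K27ac, filtered peaks for the SMADs). The deposited signal is a score of the authors' peak caller without a fixed range, and was found to equal the sum of both replicate columns. The deposited IDR is given as −log10 of the value. Replicate columns carry no number. The lists hold no read counts, so the reads behind each peak are unknown and the 2 replicates limit the precision. A listed peak passed the IDR threshold, which still leaves ranks that differ between replicates, and an unlisted one may be weak. Wide H3K27ac stretches were split differently in the lists.

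Peaks were assigned by an overlap of 1 bp with the GENCODE M39 canonical transcript and 20 kb on either side. This was done in Python 3.11.15 with numpy 2.4.6, pandas 2.3.3 and scipy 1.17.1, and figures were made with matplotlib 3.10.9. The procedure recovered 600 of 600 overlaps planted among 2000 simulated peaks, and bedtools 2.31.1 gave the same number on them. Motifs were counted on both strands in 200 bp at the summit, read from GRCm39. Intervals are Wilson 95% intervals for shares and exact ones for ratios, over peaks only. No test over samples was made. The named genes were the 6 members, every SMAD peak in their regions, their main H3K27ac peaks, the lists of related genes and the 3 nearest genes by rank. Members and lists were chosen with earlier results of these data known, and the genes of like region length and the examples from each list after the values were seen. Alternatives were the region, the assignment, the IDR, the overlap required, the upper 50% by signal, autosomes only and leaving out either replicate column. No sequence is printed for Zeb1, and the genes most like Zeb2 and 1 list of cell type markers are not reported here.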

Additional observations from a re-analysis of the deposited data

How the results depend on the processing

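Counts of peaks and genes depended on the IDR and on the window, and the ratio of BMP6 to vehicle peaks stayed above 1 for pSMAD1/5/9 and SMAD4 wherever both had peaks. For H3K27ac it was 0.965 at an IDR of 0.01 (55 and 57 peaks) and 1 at the TSS. At an IDR of 0.01, the 6 genes had 4 pSMAD1/5/9 peaks after BMP6 at 2 genes and 0 with vehicle at 0 genes, and 4 and 2 SMAD4 peaks. Within 50 kb they had 17 pSMAD1/5/9 peaks after BMP6, and 25 and 15 SMAD4 peaks. In the window from 1.5 kb before to 0.5 kb after the TSS, 1 pSMAD1/5/9 peak at 1 gene remained after BMP6 and 0 at 0 genes with vehicle, 2 SMAD4 peaks at 2 genes and 1 at 1 gene, and 4 H3K27ac peaks in each condition. The share of BMP6 SMAD4 peaks that overlapped vehicle SMAD4 was 66.7% among the upper 50% of the list by signal. Only the peaks at ranks 931, 1578 and 1973 lay in that part, so the share stood on very few peaks. For H3K27ac this share was 85.5% at an IDR of 0.01 and 100% among the upper 50%. No pSMAD1/5/9 peak met an overlap of 50% of both peaks with H3K27ac of either condition (0%), since H3K27ac peaks were wider. Counts with a region of 10 kb, all basic transcripts, summits inside the region or the nearest TSS stayed within 1.5 times, and by the nearest TSS 3 genes in place of 4 had a pSMAD1/5/9 peak after BMP6. Leaving out 1 replicate column ranks a peak by the other column alone, so it repeats the spread given above and is no separate check. The strongest vehicle SMAD4 peak of Snai1, for example, went from rank 1452 to 864 or 2222. With autosomes only, the strongest pSMAD1/5/9 peak of Snai1 after BMP6 ranked 416 in place of 437. No paired analysis was possible because each list is 1 consensus and its replicate columns carry no number.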
